A study of Homo sapiens with 10 samples.

Results

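Histone genes were followed in C4-2, a long-established line of human prostate cancer cells, across the 10 arrays of a study of the adaptor protein ARRB1 (β-arrestin 1) in the nucleus. They were all protein-coding histone genes in the probe annotation, found by their current symbols and matched by Entrez ID where the annotation held an older name. The symbols and IDs found 88 such genes in the reference, of which 80 had a named probe, out of 18664 genes with one. Of those 80 genes, 65 were clustered genes and 15 were replacement genes, and they were read by 93 probes.

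The 4 groups were nucARRB1 cells (2 arrays), which stably expressed an AcGFP fusion of ARRB1 carrying nuclear localisation sequences, wtARRB1 cells (2 arrays), which stably expressed AcGFP fused to wild-type ARRB1, GFP cells with the pAcGFP-C1 vector (3 arrays), and untransfected parental C4-2 cells (3 arrays). All 4 groups grew in RPMI with 10% foetal bovine serum and received no further treatment, and the labels state 0.8 mg/ml G418 in the medium of the stable lines. The vector's promoter was not stated, the fusions added to the cells' own ARRB1, and whether the arrays of a group came from separate clones was not stated, so p-values measure the spread between these arrays, which may be technical. Values are log2 intensities after quantile normalisation, and their number, not a read depth, limits the precision.

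Core histones H2A, H2B, H3 and H4 form the protein spool around which DNA is wound, and H1 binds the DNA that joins one spool to the next. Clustered histone genes are switched on in S phase, when new DNA has to be packed, and their messages mostly end in a stem-loop that is bound by SLBP, not in a poly(A) tail, although some of these genes also make polyadenylated transcripts. Replacement histones are made outside S phase too, from polyadenylated messages, and exchange into chromatin at promoters, centromeres, silenced regions or DNA breaks. The labelling kit used here primes on poly(A) tails, so stem-loop messages are poorly seen, and in a culture of cells a smaller share of cells in S phase cannot be told apart from less histone RNA per cell.

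Signals were checked first. The 4 probes of ARRB1 gave no call for a rise in either ARRB1 group. Its brightest probe read 8.30 and 7.71 on the arrays labelled nucARRB1, 7.72 and 7.65 on those labelled wtARRB1, 8.13, 8.59 and 8.62 in GFP cells and 8.28, 8.48 and 8.44 in parental cells, and it fell by 0.77 on the log2 scale in wtARRB1 cells against GFP cells (limma, adjusted p = 0.00702). The transgenes were made from synthetic ARRB1 DNA. Whether that sequence matches any ARRB1 probe was not tested, and the labels therefore remain unchecked by this gene. Of 8 luminal prostate markers with a named probe, 7 lay above the upper quartile of all values (6.73) on every array, and KLK3, which encodes prostate-specific antigen, read 6.14 to 7.37. Among the luminal markers TMPRSS2 alone was called, as risen in nucARRB1 cells (11.88 and 10.50, against 9.19, 9.97 and 10.22 in GFP cells). No luminal marker was called as risen there after median scaling, without normalisation, or without GFP replicate 1 or 2 or parental replicate 2. Of 21 markers of basal, fibroblast, endothelial and blood cells 17 lay below that quartile on every array. The endothelial marker VWF alone was called, reading 7.76 and 7.92 in wtARRB1 cells against 7.10, 7.39 and 7.31 in GFP cells. No endothelial marker was called there after median scaling, without normalisation or without any 1 GFP array. The part of these markers in the results was not tested. Of the 65 clustered genes 31 had a group mean above that quartile (47.7%), as did 9 of the 15 replacement genes and 48.4% of all genes.

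Clustered genes of the H2A and H2B families often lie head to head with their starts a short distance apart, so that 1 stretch of DNA serves both. The 250 bases before the start of each gene were read from RefSeq (GRCh38.p14), and 74 of the 80 genes had an entry. Those of the genes that the results below turn on are shown, with every match on either strand to the CCAAT box (CCAAT), the TATA box (TATAAA), the octamer ATTTGCAT and the cell cycle element TTTGAA in capitals. The first 4 belong to clustered genes that rose in nucARRB1 cells, from the minus strand of chr1:228457874-228458123, chr1:149886683-149886932, chr1:149812371-149812620 and chr6:27831561-27831810. The other pair belongs to replacement genes that fell, from the minus strand of chr11:119095466-119095715 and chr4:99950276-99950525.
H2AC25: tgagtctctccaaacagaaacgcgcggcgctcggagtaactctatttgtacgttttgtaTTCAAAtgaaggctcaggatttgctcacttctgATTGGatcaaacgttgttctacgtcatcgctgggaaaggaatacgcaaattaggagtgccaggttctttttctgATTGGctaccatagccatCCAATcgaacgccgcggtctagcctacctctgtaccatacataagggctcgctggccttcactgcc
H2BC21: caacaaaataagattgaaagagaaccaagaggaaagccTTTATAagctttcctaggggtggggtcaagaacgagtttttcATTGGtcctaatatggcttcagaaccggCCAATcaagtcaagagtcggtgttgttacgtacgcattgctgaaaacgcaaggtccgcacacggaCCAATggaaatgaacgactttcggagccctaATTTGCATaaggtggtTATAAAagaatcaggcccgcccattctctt
H2BC18: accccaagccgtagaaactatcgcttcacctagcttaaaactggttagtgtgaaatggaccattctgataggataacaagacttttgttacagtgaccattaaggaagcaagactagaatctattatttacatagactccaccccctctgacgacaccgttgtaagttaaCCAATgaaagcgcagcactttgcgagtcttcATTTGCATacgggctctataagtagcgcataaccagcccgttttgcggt
H4C12: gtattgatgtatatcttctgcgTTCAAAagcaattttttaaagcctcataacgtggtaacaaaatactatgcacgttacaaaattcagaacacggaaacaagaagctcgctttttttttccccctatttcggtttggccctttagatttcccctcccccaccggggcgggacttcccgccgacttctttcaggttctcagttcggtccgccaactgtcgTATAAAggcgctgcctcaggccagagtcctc
H2AX: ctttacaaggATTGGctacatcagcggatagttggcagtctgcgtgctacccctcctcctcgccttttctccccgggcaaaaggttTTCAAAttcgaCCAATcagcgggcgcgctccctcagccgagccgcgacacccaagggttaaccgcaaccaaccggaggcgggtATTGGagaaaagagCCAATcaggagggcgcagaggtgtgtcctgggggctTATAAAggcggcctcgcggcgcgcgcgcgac
H2AZ1: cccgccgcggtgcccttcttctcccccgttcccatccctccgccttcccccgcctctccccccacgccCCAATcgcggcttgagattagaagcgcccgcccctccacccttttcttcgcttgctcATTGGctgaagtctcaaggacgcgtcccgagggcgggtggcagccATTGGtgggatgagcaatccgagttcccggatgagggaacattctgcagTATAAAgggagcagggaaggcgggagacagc

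No matches overlapped one another in these 6 stretches. The octamer, a site known from H2B promoters, began at -46 in H2BC21 and at -49 in H2BC18. It was found in 14 of 18 clustered H2B promoters and in 10 of 14 clustered H2A promoters. It was in 1 of 10 clustered H3 promoters and in none of 6 H1 or 12 H4 promoters. Of all 27305 promoters in the reference 1.66% held it. CCAAT was found in 85.0% of clustered and 78.6% of replacement promoters (51 of 60 and 11 of 14), against 33.0% of all promoters, and H2AX held 4 copies. TATAAA was found in 66.7% of clustered promoters, 28.6% of replacement promoters and 11.1% of all, and it began at -31 in H4C12, H2AX and H2AZ1. TTTGAA was found in 21 of 60 clustered promoters, in 7.14% of replacement promoters and in 13.6% of all, with single copies in H2AC25, H4C12 and H2AX. The words TTTGGCGC, TTTCGCGC, TTTCCCGC and TTTGCCGC, which E2F factors are known to bind, were found in 11 of 60 clustered promoters (18.3%), in none of 14 replacement promoters and in 2.79% of all. H4C14 and H4C8, which also rose, held no match to any of these words. A match or its absence describes only the letters in this window. In 11 head-to-head pairs of a clustered H2A and H2B gene the starts lie 194 to 248 bases apart, so their windows overlap. A match in the shared DNA counts for both genes, so the clustered shares above do not rest on separate stretches. Such pairs with an E2F word in both members were H2AC11 and H2BC11, H2AC13 and H2BC13, H2AC14 and H2BC14, and H2AC17 and H2BC17.

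The comparison of nucARRB1 with GFP cells asked which messages follow nuclear ARRB1. Against GFP cells the calls of clustered genes ran in both directions, with 6 rises and 2 falls, and the replacement genes that were called all fell. The rises were H2AC25, H2BC21, H4C14, H4C8 and H4C12, by 2.02 to 3.25 times, and H2BC18, whose values in GFP cells lay too near background for a fold. The falls were the clustered genes H4C3 and H3C1 and the replacement genes H2AX, the variant that is phosphorylated at DNA breaks, H2AZ1, a variant found beside active starts, and MACROH2A1, a large variant of silenced chromatin. All p-values here are from limma, adjusted over all 48801 probes by the method of Benjamini and Hochberg, and a call is a gene under a false discovery rate of 1%.

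At that rate 10.9% of all genes were called in this comparison, 4.97% as risen and 5.9% as fallen, beside 8 of the 65 clustered genes (12.3%) and 3 of the 15 replacement genes (20.0%). The median log2 difference was 0.05 over the clustered genes, -0.18 over the replacement genes and -0.005 over all genes. Both nucARRB1 arrays lay above all GFP arrays in 16 clustered genes and below them in 9, and in 4 and 5 replacement genes, against 19.0% (above) and 21.1% (below) of all genes. Scaling moved the split of calls. All genes gave 927 rises and 1101 falls after quantile normalisation, 512 and 1316 after median scaling and 439 and 898 without normalisation, and the clustered genes gave 2 rises and 1 fall after median scaling and 3 rises and no fall without normalisation. H2AC25 and H2BC18 were called under both, H3C1 after median scaling and H4C12 without normalisation. MACROH2A1 lost its call under both (adjusted p = 0.113 and 0.29), and with trended and robust moderation H2BC21, H4C8 and H4C14 lost theirs (adjusted p = 0.174, 0.0903 and 0.0362), as did MACROH2A1 (adjusted p = 0.0109). At a rate of 5%, where 16.5% of all genes were called, 13 clustered and 5 replacement genes were. Single control arrays mattered too, since 4, 3 and 4 clustered genes were called without GFP replicate 1, 2 or 3, beside 7.57% to 7.92% of all genes. By family, 3 of 14 clustered H4 genes, 2 of 18 H2B genes, 1 of 15 H2A genes and none of the 12 H3 or 6 H1 genes rose. By place, 4 of the 11 clustered genes on chromosome 1 rose and none fell, while 2 rose and 2 fell of the 53 on chromosome 6.

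**Figure D1:**
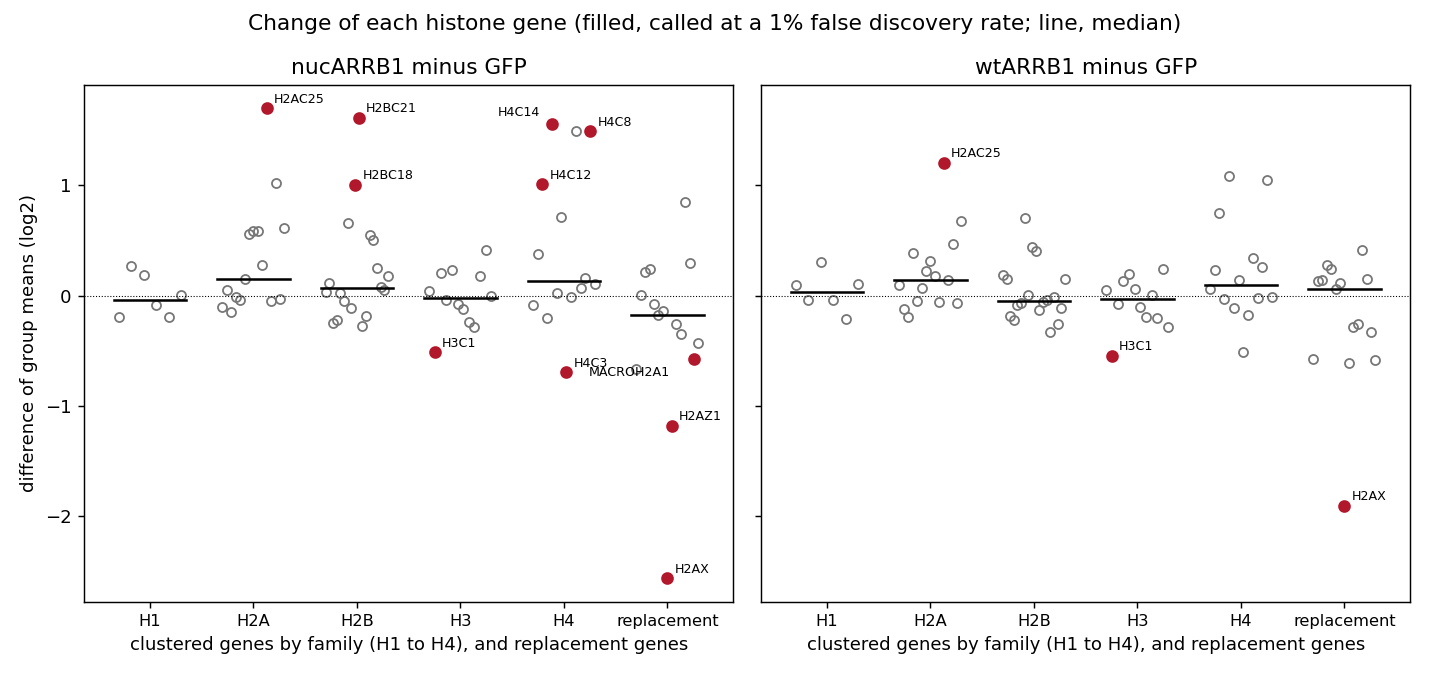
Difference between group means (log2, vertical axis) of each of the 80 histone genes, nucARRB1 minus GFP on the left and wtARRB1 minus GFP on the right, by family for clustered genes and together for replacement genes. Filled points are called at a false discovery rate of 1% and black lines are medians. In nucARRB1 cells 6 clustered genes lie above 1 as called, and H2AX lies lowest at -2.57 in nucARRB1 and -1.91 in wtARRB1 cells.

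H2AC25 (formerly HIST3H2A), a clustered H2A gene in a small cluster apart from the main ones, read 11.81 and 10.81 in nucARRB1 cells and 9.37, 9.72 and 9.74 in GFP cells. Both nucARRB1 arrays lay above every GFP array, and the parental arrays (9.50, 9.65 and 9.68) lay with the GFP arrays. The fitted rise was 1.70 ± 0.205 on the log2 scale (SE), 3.25-fold, with an adjusted p of 4.02e-05. It kept its call under all 20 alternatives tried, the lowest rise among them being 1.20. Its head-to-head neighbour H2BC26, whose start lies 230 bases away, differed by -0.28 and was not called.

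H2BC21 (HIST2H2BE), an H2B gene known to make polyadenylated messages as well, read 11.40 and 9.71 in nucARRB1 cells and 9.02, 8.91 and 8.91 in GFP cells. The groups did not overlap, but replicate 1 of nucARRB1 stood 1.69 above replicate 2. The rise was 1.61 ± 0.361 (adjusted p = 0.00722), and without replicate 1 it was 0.77 with an adjusted p of 0.163. The call was also lost without any 1 of the GFP arrays or parental replicate 2 or 3 (adjusted p = 0.0108 to 0.0323), at a rise of 1.60 to 1.65. Its neighbour H2AC20, with starts 236 bases apart, read 12.81 and 11.21 in nucARRB1 cells and 11.42, 11.31 and 11.52 in GFP cells, so that only replicate 1 was above the GFP arrays and the gene was not called. Of 11 head-to-head pairs of a clustered H2A and a clustered H2B gene with starts 194 to 248 bases apart, these 2 pairs had 1 risen member each and no pair had both called.

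H4C14 (HIST2H4A) encodes histone H4, and it has a near-identical neighbour, H4C15, that had no named probe, so the signal may hold both. It read 11.06 and 9.88 in nucARRB1 cells and 9.15, 8.62 and 8.96 in GFP cells. H4C8 (HIST1H4H) read 11.20 and 10.23 in nucARRB1 cells and 9.14, 9.29 and 9.25 in GFP cells. H4C12 (HIST1H4K) read 9.88 and 9.12 in nucARRB1 cells and 8.51, 8.47 and 8.47 in GFP cells. In each of the 3 genes both nucARRB1 arrays were above the GFP arrays and replicate 1 was the highest of the 10 arrays. The rises were 1.56 ± 0.286 for H4C14 (adjusted p = 0.00155), 1.49 ± 0.307 for H4C8 (adjusted p = 0.00381) and 1.01 ± 0.181 for H4C12 (adjusted p = 0.00127). Without replicate 1 they were 0.97, 1.00 and 0.63, with adjusted p of 0.0319, 0.0806 and 0.0302, so that none of them was then called. H4C14 was also lost without GFP replicate 2 (adjusted p = 0.0125) and H4C8 without any 1 of the GFP arrays (adjusted p = 0.0159 to 0.0196). The other probe of H4C8 read 5.96 to 6.59 over the 10 arrays, near the median of all values (6.31), and was not called.

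H2BC18 (HIST2H2BF), a further H2B gene of the chromosome 1 cluster, read 7.58 and 7.08 in nucARRB1 cells and 6.32, 6.35 and 6.31 in GFP cells. Its GFP level lay at the median of all values, where a fold change is compressed. The rise of 1.01 ± 0.133 (adjusted p = 9.37e-05) kept its call under all 20 alternatives. The parental arrays read 6.48, 6.64 and 6.65, above the GFP arrays and below both nucARRB1 arrays.

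Of the clustered genes that fell, H4C3 (HIST1H4C) was the brightest clustered H4 gene and read 13.92 and 14.59 in nucARRB1 cells and 14.95, 14.98 and 14.92 in GFP cells. Its fall of 0.70 ± 0.157 on the log2 scale (adjusted p = 0.0077) shrank to 0.36 without nucARRB1 replicate 1 (adjusted p = 0.22), and the call was also lost without any 1 of the GFP or parental arrays (adjusted p = 0.01 to 0.0326). H3C1 (HIST1H3A) read 6.68 and 6.79 in nucARRB1 cells and 7.22, 7.24 and 7.28 in GFP cells. The parental arrays of H3C1 (6.76, 6.93 and 6.75) overlapped with the nucARRB1 arrays, so the GFP arrays alone stood high. It fell by 0.52 ± 0.106 against GFP cells (adjusted p = 0.00379), and against parental cells the difference was -0.08 (adjusted p = 0.848). Leaving out either nucARRB1 array or any 1 of the GFP arrays also ended this call (adjusted p = 0.0105 to 0.0563).

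**Figure D2:**
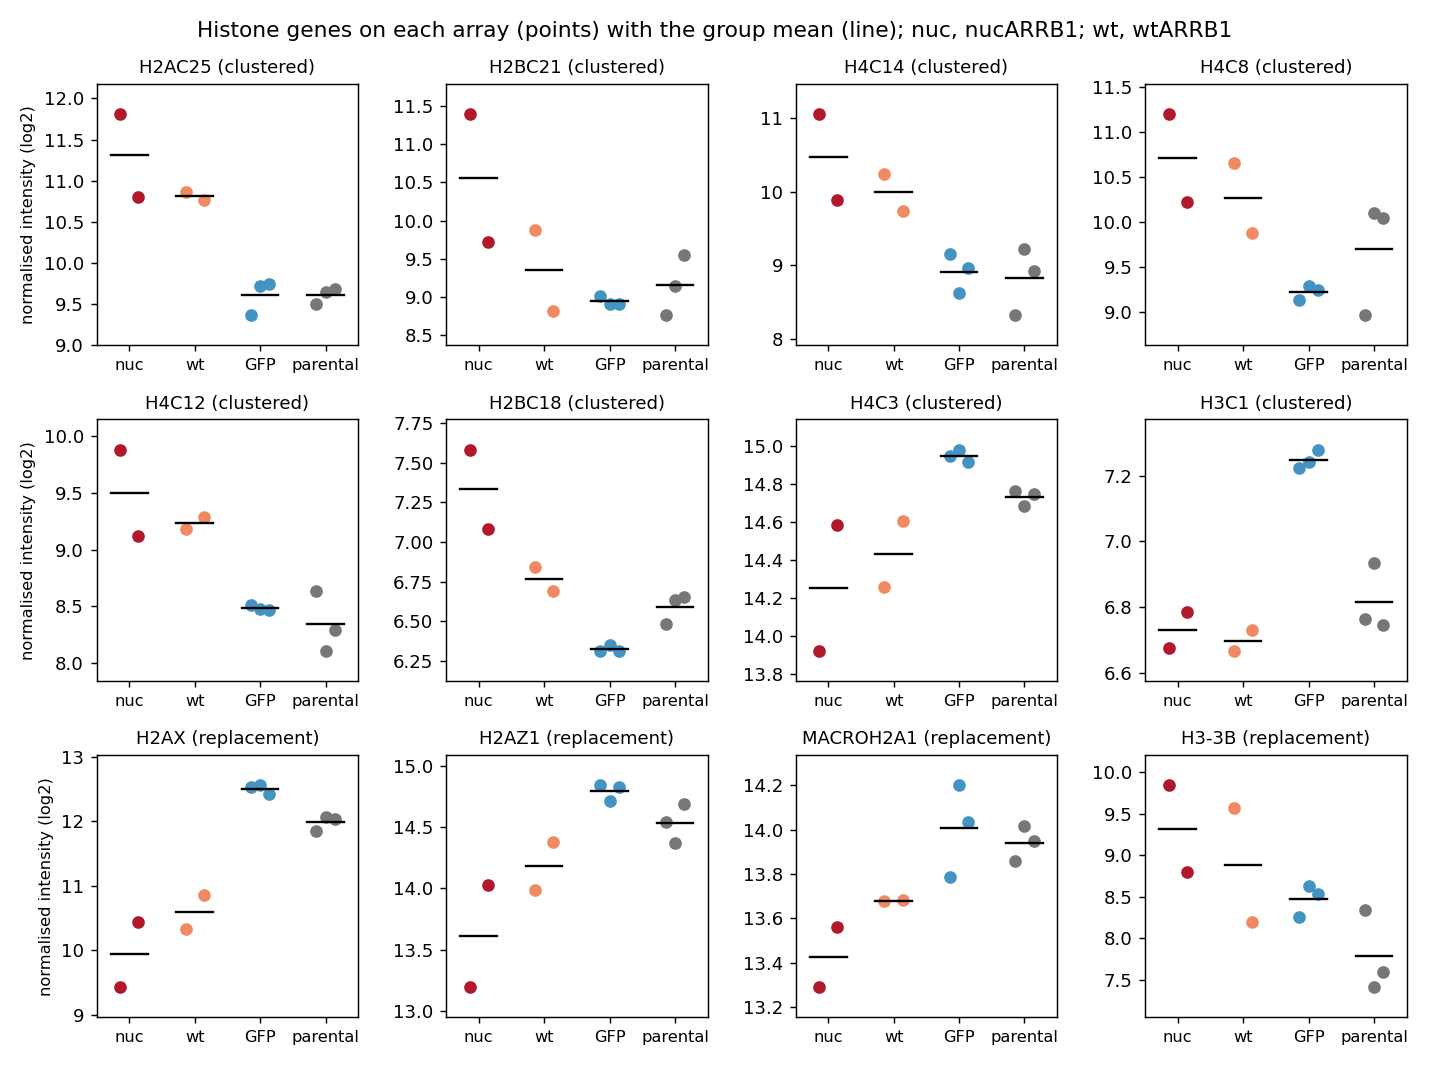
Normalised intensity (log2, vertical axis, each panel with its own range that does not start at 0) of the 11 histone genes called in nucARRB1 against GFP cells and of H3-3B, on every array (points) with the group mean (line). Both nucARRB1 arrays lie outside the range of the 3 GFP arrays in each panel, and their 2 points are the farthest apart in most panels.

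Among the replacement genes H2AX changed most. It read 9.44 and 10.44 in nucARRB1 cells and 12.54, 12.56 and 12.43 in GFP cells, with 11.85, 12.07 and 12.03 in parental cells. Every nucARRB1 array was below every control array. H2AX fell by 2.57 ± 0.213 on the log2 scale, to 0.169 of the GFP level (adjusted p = 1.52e-06), and its other probe fell by 1.46 ± 0.127 (adjusted p = 2.31e-06). H2AX is known to make both a stem-loop message and a polyadenylated one.

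H2AZ1 read 13.20 and 14.03 in nucARRB1 cells and 14.84, 14.71 and 14.83 in GFP cells, and the groups did not overlap. It fell by 1.18 ± 0.186 (adjusted p = 0.000431) and kept its call under all 20 alternatives. MACROH2A1 read 13.29 and 13.56 in nucARRB1 cells and 13.79, 14.20 and 14.04 in GFP cells. Its fall of 0.58 ± 0.129 (adjusted p = 0.00693) was lost without nucARRB1 replicate 1 (adjusted p = 0.123) and without GFP replicate 2 or 3 or parental replicate 2 or 3 (adjusted p = 0.0116 to 0.0395). Its other 3 probes, which differed by -0.27, 0.23 and -0.07, were not called.

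The other 12 replacement genes were not called. H1-10, a replacement linker histone, read 8.95 and 9.28 in nucARRB1 cells and 9.95, 9.73 and 9.66 in GFP cells (difference -0.67, adjusted p = 0.0177). H3-3A and H3-3B both encode H3.3, the H3 that is deposited without replication. H3-3A read 14.73 and 14.69 in nucARRB1 cells and 15.05, 15.05 and 15.08 in GFP cells (difference -0.35, adjusted p = 0.0458), whereas H3-3B read 9.84 and 8.80 in nucARRB1 cells and 8.25, 8.63 and 8.53 in GFP cells (difference 0.85, adjusted p = 0.178). The arrays of nucARRB1 were thus below all GFP arrays for H3-3A and above them for H3-3B, without a call for either. MACROH2A2, the paralogue of MACROH2A1, read 8.83 and 9.71 in nucARRB1 cells and 9.68, 9.66 and 9.76 in GFP cells (adjusted p = 0.246). H2AZ2, which encodes a near copy of H2A.Z, differed by -0.26, H2AJ by -0.14 and H3-5, a primate H3 gene related to H3-3B, by 0.29. The germline genes H1-7, H1-8, H2AB1, H2AB2 and H2AB3 differed by -0.18 to 0.24 at values near the median of all probes.

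The brightest clustered genes of the H1, H2A, H2B and H3 families were not called. H1-2 (HIST1H1C), the brightest clustered H1 gene, read 11.47 and 10.77 in nucARRB1 cells and 11.45, 10.29 and 10.82 in GFP cells. H2AC18, the brightest clustered H2A gene, read 13.24 and 11.71 in nucARRB1 cells and 11.96, 11.68 and 12.02 in GFP cells. H2BC12 (HIST1H2BK), the brightest clustered H2B gene and one known for a polyadenylated message, read 13.68 and 13.56 in nucARRB1 cells and 13.75, 13.84 and 13.94 in GFP cells. H3C10, the brightest clustered H3 gene, read 9.48 and 8.56 in nucARRB1 cells and 8.95, 8.62 and 8.87 in GFP cells. For H2BC12 both nucARRB1 arrays lay below the GFP arrays, by a difference of -0.22 (adjusted p = 0.561), and for H3C10 one lay above them and one below. The 4 clustered germline genes H1-6, H2AC1, H2BC1 and H3-4 read between 6.02 and 6.47 over the 10 arrays.

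The pair of nucARRB1 arrays differed from each other in many clustered genes. Replicate 1 was the highest of the 10 arrays for 24 of the 65 clustered genes (36.9%) and for 14% of all genes, while replicate 2 was the highest for 1 of the 65 and for 9.56% of all genes. Replicate 1 exceeded replicate 2 by more than 1 on the log2 scale in 11 clustered genes (16.9%), against 0.504% of all genes, and the reverse was seen in none. Among genes with any group mean above the upper quartile these shares were 11 of 31 clustered genes (35.5%) and 1.02% of all genes. The nucARRB1 mean, which holds replicate 1, was among those means. This filter therefore favours genes high on replicate 1, and its share adds no separate support. The 11 were H2AC6, H2AC18, H2AC20, H2AC25, H2BC4, H2BC5, H2BC21, H3C4, H4C2, H4C5 and H4C14.

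H4C5 differed most, at 9.49 and 7.40 in nucARRB1 cells against 6.98, 6.79 and 7.08 in GFP cells, and was not called (difference 1.49, adjusted p = 0.0178). H2BC5 (HIST1H2BD) read 11.02 and 9.54 in nucARRB1 cells against 9.94, 9.63 and 9.75 in GFP cells, and H2AC6 (HIST1H2AC), its message also known in polyadenylated form, read 10.71 and 9.33 against 8.88, 9.03 and 9.09. For H2BC5 replicate 2 lay below all GFP arrays, and for H2AC6 both arrays lay above them. On a further bright probe of H2BC5 both nucARRB1 arrays (11.02 and 9.76) lay above the GFP arrays (9.72, 9.62 and 9.65). On its dimmest probe (7.03 and 6.21, against 6.33, 6.48 and 6.42) replicate 2 again lay below them. Neither probe was called. Of the replacement genes only H3-3B exceeded 1 in the same direction (1.04) and H2AX in the other (-1.01). In wtARRB1 cells replicate 1 exceeded replicate 2 by more than 1 in 1 clustered gene, and by more than 0.5 in 9 (13.8%), with 3 the other way (4.62%), against 3.31% and 3.46% of all genes. Of the 15 replacement genes 2 exceeded 0.5 in each direction. S phase markers, described below, also differed between the nucARRB1 arrays, with means of -1.88 on replicate 1 and -1.50 on replicate 2 relative to GFP cells, and their part in the pattern was not tested. With nucARRB1 replicate 1 left out 2 clustered genes were called (H2AC25 and H2BC18), beside 6.84% of all genes. With replicate 2 left out 17 were, of which 16 rose, beside 10.6% of all genes (892 risen, 1090 fallen). Near-identical copies share sequence, so neighbouring clustered genes may read one another's messages, and the part of this in the pattern was not tested.

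**Figure D3:**
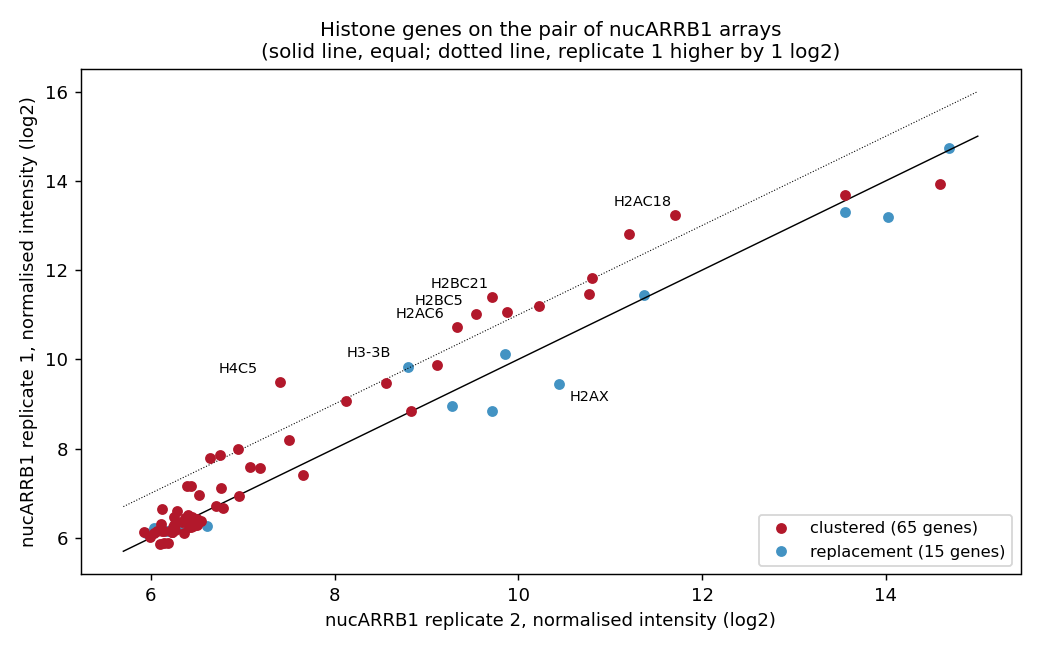
Normalised intensity (log2) of each histone gene on nucARRB1 replicate 1 (vertical axis) and nucARRB1 replicate 2 (horizontal axis), with 65 clustered genes in red and 15 replacement genes in blue. The solid line marks equal values and the dotted line a value higher by 1 on replicate 1; 11 clustered genes lie above the dotted line, H4C5 farthest at 9.49 against 7.40, and H2AX lies below the solid line.

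The comparison of wtARRB1 with GFP cells asked the same of the fusion without added nuclear localisation sequences. In it 9.01% of all genes were called (4.3% risen, 4.71% fallen, 802 and 879 genes, or 345 and 1264 after median scaling and 204 and 1331 without normalisation, which moved the median of all genes to -0.12). Only H2AC25 rose and H3C1 fell among the 65 clustered genes, and only H2AX fell among the 15 replacement genes. Leaving out nucARRB1 replicate 1 or replicate 2, which only share the error estimate here, gave 7 clustered and 3 replacement genes in each case, beside 11.4% of all genes. Without wtARRB1 replicate 1, GFP replicate 2, GFP replicate 3 or parental replicate 1, 0, 1, 1 and 4 clustered genes were called, beside 5.43%, 6.12%, 5.85% and 9.38% of all genes. At a rate of 5%, where 14.5% of all genes were called, 7 clustered and 2 replacement genes were. H2AX read 10.33 and 10.86 in wtARRB1 cells and 12.54, 12.56 and 12.43 in GFP cells, below every control array. It fell by 1.91 ± 0.213 (adjusted p = 3.29e-05), its other probe fell by 1.02 ± 0.127 (adjusted p = 8.19e-05), and the call held under all 20 alternatives.

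H2AC25 read 10.87 and 10.77 in wtARRB1 cells and 9.37, 9.72 and 9.74 in GFP cells, above every control array. It rose by 1.21 ± 0.205, 2.31-fold (adjusted p = 0.00105), and lost the call without wtARRB1 replicate 1 (1.16, adjusted p = 0.0142), after median scaling (0.94, adjusted p = 0.039) and without normalisation (0.85, adjusted p = 0.0596). H3C1 read 6.67 and 6.73 in wtARRB1 cells and 7.22, 7.24 and 7.28 in GFP cells, and fell by 0.55 ± 0.106 (adjusted p = 0.00294). It lost the call without either wtARRB1 array (highest adjusted p = 0.0358), without GFP replicate 2 or 3 and against parental cells (-0.12, adjusted p = 0.777). H4C14 (1.08, adjusted p = 0.0259), H4C8 (1.05, adjusted p = 0.0465) and H4C12 (0.75, adjusted p = 0.0152) were not called, with both wtARRB1 arrays above all GFP arrays in each. H2BC21 read 9.88 and 8.82 in wtARRB1 cells and overlapped with the GFP arrays. Of the replacement genes not called, H2AZ1 differed by -0.61 (adjusted p = 0.0568), H1-10 by -0.57 (adjusted p = 0.0488), MACROH2A2 by -0.59 (adjusted p = 0.085) and MACROH2A1 by -0.33 (adjusted p = 0.179), and the other 10 by -0.29 to 0.41. Both comparisons share the 3 GFP arrays.

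The direct comparison of nucARRB1 with wtARRB1 cells called none of the 80 histone genes in limma (0.0643% of all genes were called, 12 of 18664), and 14 histone genes (17.5%) had an unadjusted p under 0.05, against 10.1% of all genes. The largest difference was in H2BC21, 1.21 with a 95% interval of 0.37 to 2.05 and an adjusted p of 0.428. H2AX differed by -0.66 (interval -1.15 to -0.16, adjusted p = 0.497), H2AZ1 by -0.57 (-1.0 to -0.14, adjusted p = 0.505), H2AC25 by 0.49 (0.02 to 0.97, adjusted p = 0.675) and H2BC18 by 0.57 (0.26 to 0.87, adjusted p = 0.228). Differences of these sizes could not be separated from no difference over all probes, and the intervals do not show that the lines were alike. Without nucARRB1 replicate 2, 7 clustered genes were called as higher and 2 replacement genes as lower in nucARRB1 cells, beside 1.31% of all genes.

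GFP against parental cells read the vector together with transfection and 0.8 mg/ml G418, which the labels give for the stable lines only. These cannot be told apart in this comparison, nor where parental cells serve as the control. None of the 80 histone genes was called in limma or in any alternative fit that kept this comparison, beside 0.0482% of all genes called, and 9 (11.2%) had an unadjusted p under 0.05, against 10.0% of all genes. The median difference was -0.003 over the clustered and 0.087 over the replacement genes. Against parental cells in place of GFP cells, 4 clustered genes rose in nucARRB1 cells (H2AC25, H2BC18, H4C12 and H4C14), 2 replacement genes fell (H2AX and H2AZ1) and 6.65% of all genes were called (3.09% risen, 3.56% fallen). In wtARRB1 cells H2AC25 and H4C12 rose and H2AX fell against parental cells, with 4.88% of all genes called (2.47% risen, 2.41% fallen). H4C8 read 8.97, 10.11 and 10.05 on the parental arrays and lost its call with this control (difference 1.01, adjusted p = 0.0671).

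Genes that make, trim, carry or use histones were read from lists of textbook members. S phase markers were mostly genes for DNA replication, nucleotide synthesis and entry into S phase. They fell in 13 of 15 cases in nucARRB1 cells and in 13 of 15 in wtARRB1 cells, with medians of -1.90 and -1.69 and no rise. That was 86.7% of the list in each, against 10.9% and 9.01% of all genes called. The linear sum of their 15 intensities was 6302 to 8531 in nucARRB1 cells, 6873 to 11179 in wtARRB1 cells, 31427 to 32030 in GFP cells and 23144 to 25715 in parental cells. The largest differences in nucARRB1 cells were -2.95 in TK1 and -2.63 in TYMS, both nucleotide synthesis enzymes, and in wtARRB1 cells -2.27 in TYMS and -2.18 in MCM7, a helicase subunit. E2F1 and CCNE2, which were not called, read 5.79 to 6.38 over the 10 arrays, near the median of all values. Leaving out single arrays left 12 to 13 falls in nucARRB1 and 10 to 13 in wtARRB1 cells. These values stand beside the histone calls above, and their part in them was not tested.

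Of 17 genes for histone transcription and mRNA processing, 2 fell and none rose in each comparison. That was 11.8% of the list, near the shares of all genes called (10.9% in nucARRB1 and 9.01% in wtARRB1 cells). SLBP, the stem-loop binding protein, read 8.95 and 8.46 in nucARRB1 cells, 8.49 and 8.65 in wtARRB1 cells, 9.57, 9.56 and 9.94 in GFP cells and 9.41, 9.46 and 9.56 in parental cells. Every ARRB1 array was below every control array, and the falls were 0.99 ± 0.149 in nucARRB1 cells (adjusted p = 0.000289) and 1.12 ± 0.149 in wtARRB1 cells (adjusted p = 0.000141). CSTF2, a cleavage factor also used on histone messages, fell by 1.09 (adjusted p = 3.21e-05) and 0.96 (adjusted p = 0.000145).

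Of 12 chaperones and carriers that act in replication, 6 fell in nucARRB1 and 5 in wtARRB1 cells and none rose, with medians of -0.51 and -0.65. These were 50.0% and 41.7% of the list, against 10.9% and 9.01% of all genes called. MCM2, a helicase subunit that also holds H3 and H4, differed from GFP cells by -2.38 in nucARRB1 and -2.30 in wtARRB1 cells, and ASF1B, an H3 and H4 chaperone of dividing cells, by -2.37 and -1.87. A further list held 17 genes for histone deposition and exchange outside replication, and a place on it does not exclude a part in replication. Of these, 5 fell and none rose in nucARRB1 cells and 4 fell and 1 rose in wtARRB1 cells. Calls were thus 29.4% of that list in each, against 10.9% and 9.01% of all genes. HJURP, which loads the centromeric H3 variant CENPA, fell by 2.05 (adjusted p = 1.39e-05) and 1.5 (adjusted p = 0.000306), and SUPT16H, a subunit of the FACT complex, by 1.09 in both. ZNHIT1, a subunit of the complex that places H2A.Z, rose by 0.62 in wtARRB1 cells (adjusted p = 0.00799), but no member of its list was called as risen after median scaling, without normalisation, or without any 1 GFP array, parental replicate 2 or 3, or wtARRB1 replicate 2. The part of these falls in the histone values was not tested. CENPA itself read 7.47 and 9.78 in nucARRB1 cells, against 9.96, 10.15 and 10.13 in GFP cells. With 9.35 and 9.97 in wtARRB1 cells, nucARRB1 replicate 1 alone was far below the rest and the difference of -1.46 was not called (adjusted p = 0.0315).

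**Figure D4:**
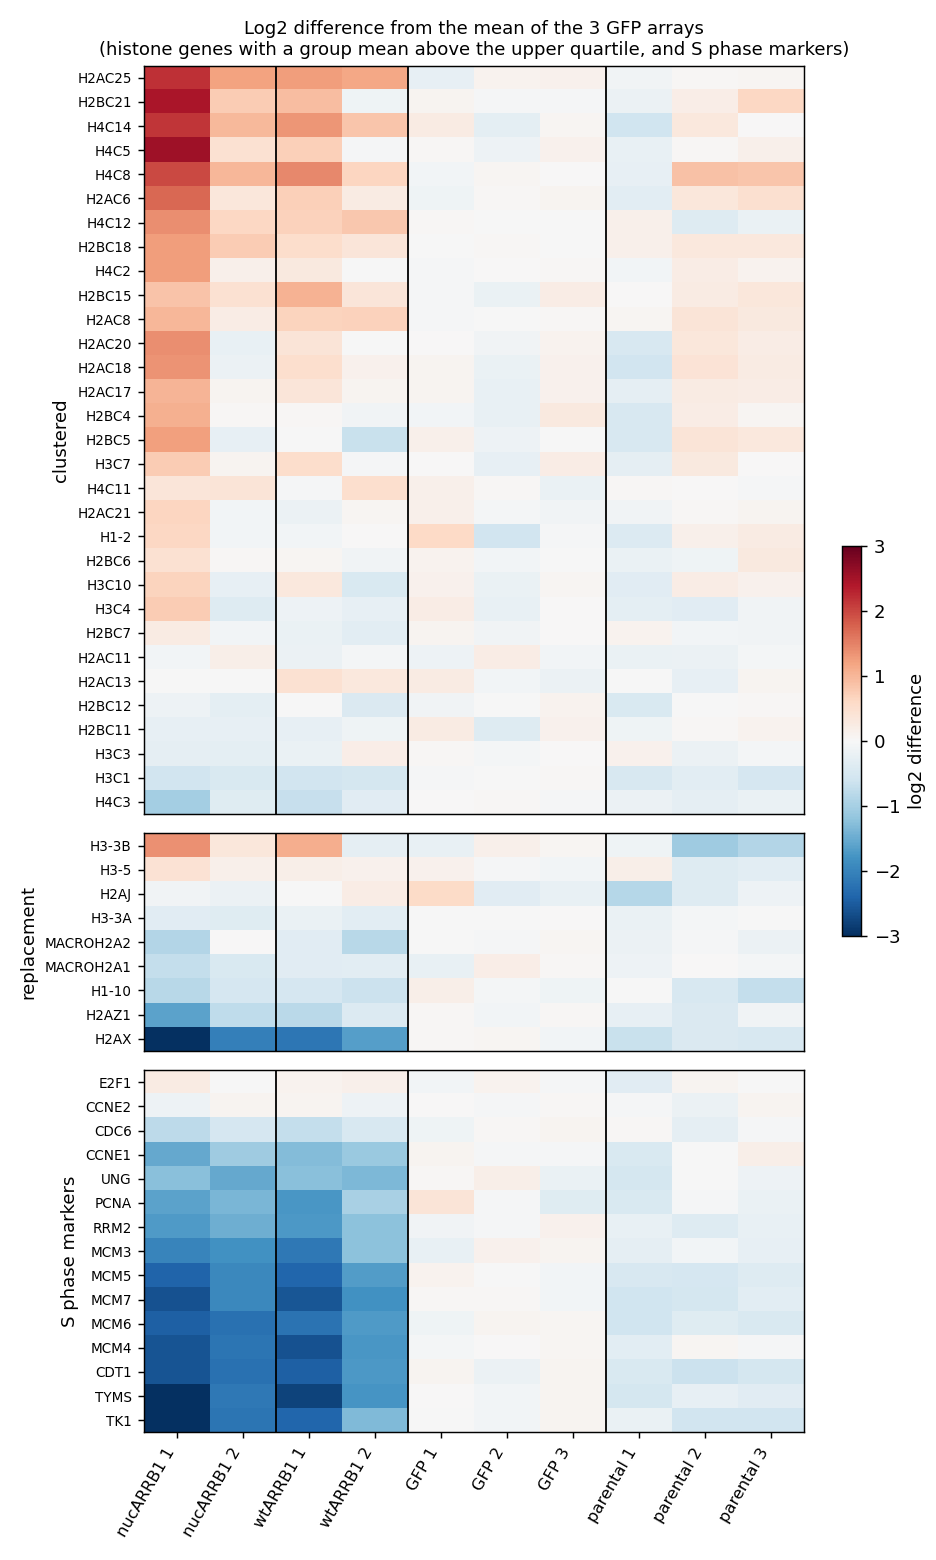
Log2 difference of each array (columns, nucARRB1, wtARRB1, GFP and parental from left to right) from the mean of the 3 GFP arrays, for the 31 clustered and 9 replacement histone genes brighter than the upper quartile and for 15 S phase markers (rows, each block ordered by its nucARRB1 mean). Red is higher and blue lower than GFP, on a scale cut at -3 and 3. Brightness was the highest of the 4 group means, nucARRB1 included, so the choice of histone rows favours genes high on the nucARRB1 arrays. Most clustered rows are red on nucARRB1 replicate 1, while H2AX and 13 of 15 S phase markers are blue on all 4 ARRB1 arrays.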

How the data were processed

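Each sample's total RNA gave biotin-labelled cRNA for 1 Illumina BeadChip array covering the whole genome. The authors pre-processed and quantile normalised the arrays in beadarray (version and background correction not given in the sources used here) and deposited log2 values with and without normalisation. The normalised log2 values were used, and the others served alternatives. The deposited files gave no detection call, so dim probes were kept.

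All 48801 probes were fitted by 4 group means in limma 3.58.1 (R 4.3.3), with empirical Bayes moderation (6 residual and 9.94 prior degrees of freedom), as in the study's methods. Standard errors are from this fit, and 95% intervals use 15.94 degrees of freedom. P-values were adjusted by Benjamini and Hochberg over all probes, and calls were made at a false discovery rate of 1%. A gene with several probes was read on the brightest one, by its mean over all arrays, and 27576 probes carried 1 gene symbol, 13 several and 21212 none. Symbols came from the platform annotation, updated by Entrez ID (GRCh38.p14). Genes with no named probe included H2AC16, H2AC19, H2BC12L, H3-7, H3C15, H3C6 and H4C15, and the pseudogene H3P6 was left out.

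Arrays were grouped by their labels. Each replacement gene, the called clustered genes with the largest changes (8 each way), the brightest clustered gene of each family, CENPA and up to 2 members a direction of each list were named, and H4C5, H2BC5, H2AC6, H2AC20 and H2BC26 were added after their values were seen. Histone genes and lists were chosen with earlier results of these data known. The fit was tested on simulated data. Alternatives were normalisation, a dim-probe filter, averaged probes, a 5% rate, 2 groups alone, trended and robust moderation, array weights, a replicate block, single arrays left out and parental cells as control. Promoter words were searched in Python 3.11.15.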

Additional observations from a re-analysis of the deposited data

Results flagged for a closer look

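H2AB2, a replacement H2A gene of the germline, read 6.21 and 6.37 in nucARRB1 cells, against 6.56, 6.22 and 6.33 in GFP cells. It read 6.53 and 6.69 in wtARRB1 cells. Both nucARRB1 arrays were on the side of the GFP mean opposite to both wtARRB1 arrays, which is why it stands here. Of these, nucARRB1 replicate 2 lay almost at the GFP mean, and the opposition was not itself tested. The difference of nucARRB1 minus wtARRB1 was -0.32 and was not called in limma (adjusted p = 0.605), and all these values lie near the median of all probes. On the other probe of H2AB2 both groups differed from GFP cells in the same direction, by -0.02 in nucARRB1 and -0.06 in wtARRB1 cells, without a call.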

How the results depend on the processing

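No histone gene named as called reversed its direction under any of the 20 alternatives run for it. The number of clustered genes called in nucARRB1 against GFP cells, 8 in all, was 3 after median scaling and 3 without normalisation, 5 with trended and robust moderation, 5 with the replicate number as a block, 13 at a rate of 5%, 4 against parental cells, and 2 to 17 with single arrays left out. The number of replacement genes, 3, was 5 at a rate of 5% and 2 to 4 with single arrays left out. In wtARRB1 against GFP cells the number of clustered genes, 2, was 1 after median scaling and 1 without normalisation, 6 with the 2 groups alone, 7 at a rate of 5% and 0 to 7 with single arrays left out, and that of replacement genes, 1, was 2, 2, 3, 2 and 1 to 3 under the same settings. With single arrays left out, nucARRB1 against wtARRB1 gave 0 to 7 clustered and 0 to 2 replacement genes, and GFP against parental cells gave 0 under every setting run. The share of all genes called moved too. In nucARRB1 against GFP cells it was 10.9% in the main fit, 9.79% after median scaling and 7.16% without normalisation. It was 8.95% with trended and robust moderation, 8.28% with the block, 16.5% at a rate of 5% and 6.65% against parental cells. In wtARRB1 against GFP cells it was 9.01% in the main fit, 8.62% after median scaling and 8.22% without normalisation. It was 10.1% with the 2 groups alone and 14.5% at a rate of 5%. Beyond fewer arrays or another rate by construction, the cause was not tested.

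Deviations of arrays with the same replicate number correlated at -0.104 to 0.0686 over 13 pairs, against -0.0794 to 0.104 for other numbers. In a group of 2 arrays the deviations mirror each other, so those ranges hold the same values with opposite sign and cannot be set against each other. Parental and GFP cells had 3 arrays each, and their same-numbered pairs correlated at -0.0888, -0.0009 and -0.0021. With the number as a block the calls of H4C8, H4C3 and H3C1 in nucARRB1 cells were lost (adjusted p = 0.0106, 0.0119 and 0.0104). With 2 arrays in each ARRB1 group, a group's spread rests on 1 difference and the fit borrows from the others. Values near 6.31, the median of all probes, cannot be told from background here.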
